A study of Mus musculus with 30 samples.

Results

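Collagens are the triple-helical proteins of the extracellular matrix, and every molecule is built from 3 alpha chains, each from its own gene. The genes described here are the mouse collagen alpha chains that are not chains of the cartilage collagens II, IX and XI. They were chosen by symbol (Col, a number, a, a number), leaving out Col2a1, Col9a1, Col9a2, Col9a3, Col11a1 and Col11a2, and also Col12a1 and Col14a1. A RefSeq gene table of assembly GRCm38.p6 lists 44 genes with such symbols, of which 36 remained after the 8 exclusions. Col28a1 and Col6a6 were not matched to a probe set and were not analysed here, so 34 of the 18193 named genes on the array are chains of this kind. Col4a4 and Col6a5 did not pass the filter on low signal, and 32 chains entered the tests among 15136 genes. Of these, 21 lay above the 40th percentile of signal on all 30 arrays, and Col10a1, Col13a1, Col17a1, Col20a1 and Col6a4 did so on at most 14 arrays. Col8a1, Col8a2, Col10a1, Col17a1, Col19a1 and Col24a1 did so on 0 of 6 day 0 arrays and so entered the tests through later arrays only.

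The arrays measured RNA of limb mesenchyme, the loose embryonic tissue that gives rise to limb cartilage, tendon and other connective tissue, from CD-1 mouse embryos kept as dense primary cultures in medium with serum. The labels of each array give the stage as E10.5, although the culture protocol shared by all arrays names older limb buds as well. The study asked how BMP4, a secreted bone morphogenetic protein, acts on cartilage formation in cells of different limb regions. An early population came from the distal hindlimb, an intermediate population from the distal forelimb and a late population from the proximal forelimb. Each was sampled in control medium at day 0 (shortly after plating), day 1 and day 2, and with 20 ng/ml BMP4, present from the start, at day 1 and day 2. These are 15 groups of 2 arrays, called biological replicates in the labels, and each RNA was drawn from the pooled limbs of many embryos. No allele or transgene is named for any group, and the cultures hold whatever cell types the dissected regions contained. Every value below is on the scale log2(signal + 16) of 1 probe set per gene, where signal is the deposited array intensity. A difference is given with the standard error (SE) of a limma fit over all 30 arrays, with 2 arrays per group, and counted as passing where its Benjamini-Hochberg adjusted p over 15136 genes was under 0.05. The number of arrays limits the precision, the p-values measure only the spread between these arrays, and differences of dim chains are understated on this scale.

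As background, collagen chains are translated into the endoplasmic reticulum, hydroxylated on proline and lysine, folded into triple helices with the help of chaperones, secreted, trimmed by proteinases and cross-linked outside the cell. Fibril-forming chains (types I, III, V, XXIV and XXVII) make the cables of connective tissue, type IV and the multiplexins XV and XVIII belong to basement membranes, type VI forms beaded filaments around cells, and types VIII and X form hexagonal networks. Fibril-associated chains coat fibrils, and transmembrane collagens sit in the cell membrane. The exclusion of collagens II, IX and XI does not make all remaining chains strangers to cartilage: Col10a1 is the collagen of hypertrophic cartilage and Col27a1 is known from developing cartilage. The summed signal of 6 cartilage markers (Sox9, Acan, Matn1, Matn4, Hapln1 and Cnmd) lay between 391 and 556 at day 0, between 1490 and 2100 at day 1 and between 3070 and 6290 at day 2 in control medium, so cartilage genes rose in the same cultures as the chains described here.

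The results turn on the partner chains Col8a1 and Col8a2, which changed most, and on Col18a1, which moved the other way. Their promoters are shown as the 250 bases before the RefSeq gene start in GRCm38.p6, read 5′ to 3′ along the gene, with capitals on each match, on either strand, to the GC box GGGCGG, the CCAAT box CCAAT or the TATA box TATAAA.
Col8a1, chr16:57754738-57754987, minus strand: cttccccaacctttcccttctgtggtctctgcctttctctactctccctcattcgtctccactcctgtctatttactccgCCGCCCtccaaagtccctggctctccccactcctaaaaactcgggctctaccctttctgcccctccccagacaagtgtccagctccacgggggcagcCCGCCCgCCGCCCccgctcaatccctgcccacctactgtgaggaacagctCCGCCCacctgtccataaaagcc
Col8a2, chr4:126286544-126286793, plus strand: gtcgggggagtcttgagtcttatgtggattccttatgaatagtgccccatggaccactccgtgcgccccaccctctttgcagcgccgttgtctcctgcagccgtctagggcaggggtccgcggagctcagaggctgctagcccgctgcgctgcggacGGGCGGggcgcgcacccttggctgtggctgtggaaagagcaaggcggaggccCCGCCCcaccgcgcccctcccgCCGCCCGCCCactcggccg
Col18a1, outer start, chr10:77166531-77166780, minus strand: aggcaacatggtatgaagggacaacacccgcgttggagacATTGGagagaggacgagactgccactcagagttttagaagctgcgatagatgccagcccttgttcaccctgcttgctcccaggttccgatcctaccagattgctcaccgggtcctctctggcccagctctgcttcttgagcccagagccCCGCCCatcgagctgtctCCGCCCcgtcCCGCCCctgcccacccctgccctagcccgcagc
Col18a1, inner start, chr10:77113706-77113955, minus strand: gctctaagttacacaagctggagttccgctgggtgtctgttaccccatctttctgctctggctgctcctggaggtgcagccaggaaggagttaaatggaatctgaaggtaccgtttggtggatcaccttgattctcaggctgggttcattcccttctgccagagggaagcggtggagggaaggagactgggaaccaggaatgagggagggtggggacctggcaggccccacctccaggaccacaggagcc
The Col8a1 and Col8a2 windows each hold 4 matches to the GC box, of which a pair overlaps in Col8a2, and neither holds the TATA or the CCAAT box in these exact letters. The outer Col18a1 window holds 3 GC boxes and 1 CCAAT box, and the inner one holds none of these motifs. Windows were at hand for 29 of the 34 chains (31 windows, since some genes have more than 1 start). The GC box was found in 18 of the 31 windows (58.1%), compared with 10756 of 32851 windows of all genes (32.7%). The CCAAT box was found in 35.5% of the chains' windows and 33.8% of all windows, and the TATA box in 12.9% and 12.4%. A match describes the letters only and is neither a binding site nor a cause.

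Some day 0 arrays did not carry the limb genes that their labels call for, and this bears on every comparison with day 0. The fit takes 1 spread per gene from all 15 groups, so these arrays also enter the SE of the other comparisons. Pitx1, a hindlimb gene, read 9.74 and 5.90 on the early day 0 arrays and 6.15 and 9.43 on the intermediate ones, while Tbx5, a forelimb gene, read 4.47 and 8.50 on the early and 8.47 and 4.68 on the intermediate arrays. Replicate 2 of the early and of the intermediate population thus each showed the pattern of the other limb at day 0. Meis2, a gene of the proximal limb, read 9.60 and 7.53 on the late day 0 arrays, so replicate 2 stood apart there too. On the early arrays Meis2 read 9.68 and 9.86, and on the intermediate ones 6.97 and 9.73. In these genes early replicate 2 read like late replicate 1, and intermediate replicate 2 like early replicate 1. By Meis2, late replicate 2 was nearest to intermediate replicate 1. Whether arrays were exchanged was not tested. Pearson's r of the replicates of a group ran from 0.970 to 0.984 over genes (genes are no independent replicates), and array medians ran from 33.9 to 46.4 in signal. The 4 mesenchyme markers Prrx1, Pdgfra, Twist1 and Msx1, which the labelled cell type calls for, were each above the 40th percentile on all 30 arrays, with a summed signal of 5150 to 6440 at day 0 and 3710 to 4760 at day 2 in control medium. An average over the 3 populations holds the same 6 day 0 arrays whichever population they came from, and values without the 3 arrays are given where they end a call.

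Collagen chains changed widely in control medium. At day 2 compared with day 0, 12 of 32 chains rose in the early, 15 in the intermediate and 16 in the late cultures, beside 14.8%, 17.6% and 16.9% of all genes, and 1 chain, Col18a1, fell in each population, beside 9.31%, 12.7% and 10.6% of all genes. The median difference of the chains was 0.68, 0.62 and 0.68, where that of all genes was 0.00, 0.00 and 0.01. The 11 chains that rose in all 3 populations were Col1a1, Col5a1, Col5a2, Col24a1 and Col27a1 among the fibril-forming chains, Col6a1, Col6a2 and Col6a3, Col8a1 and Col8a2, and the fibril-associated Col16a1. Some of these calls hung on 1 array. In the early population Col6a3 lost its call without replicate 1 of day 0 (0.50) or of day 2 (0.78). Col6a2 lost it there without replicate 1 of day 2 (0.87), and Col27a1 in the intermediate population without replicate 1 of day 0 (0.85). Without the 3 doubted day 0 arrays, 13 rather than 17 chains passed in the late population, losing Col10a1, Col1a1, Col1a2 and Col3a1, and Col19a1 no longer passed in the early population (1.24, adjusted p = 0.103). Of the chains counted as rising, Col8a1, Col8a2, Col24a1, Col19a1 and Col10a1 entered the tests only through arrays later than day 0. Their rises describe these arrays and do not support the counts. These are bulk cultures, in which fewer cells of a type and less RNA per cell cannot be told apart.

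The 2 days differed in how many chains moved. Averaged over the populations, 15 chains rose and 4 fell on the first day (day 1 compared with day 0), beside 22.5% and 17.0% of all genes, and 12 rose and 0 fell on the second day (day 2 compared with day 1), beside 5.61% and 2.94% of all genes. On the second day 15 of 32 chains had an unadjusted p under 0.05, beside 3322 of all 15136 genes. The medians were 0.31 on the first and 0.25 on the second day, with 0.00 for all genes on both. The chains Col16a1, Col24a1, Col27a1, Col5a1, Col6a1, Col6a2, Col6a3, Col8a1 and Col8a2 rose on both days. On the first day alone Col19a1, Col1a1, Col25a1, Col3a1, Col4a5 and Col5a2 passed, and on the second day alone Col10a1, Col15a1 and Col1a2. As Col8a1, Col8a2, Col24a1 and Col19a1 entered the tests only through arrays later than day 0, their first-day rises do not support the counts here or below. Col10a1 entered only through day 2 arrays, so its second-day rise does not support them either. The first-day rise of Col3a1 passed no longer without intermediate replicate 1 or late replicate 2 of day 0 (0.33, adjusted p = 0.0651, and 0.31, adjusted p = 0.0703).

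**Figure D1:**
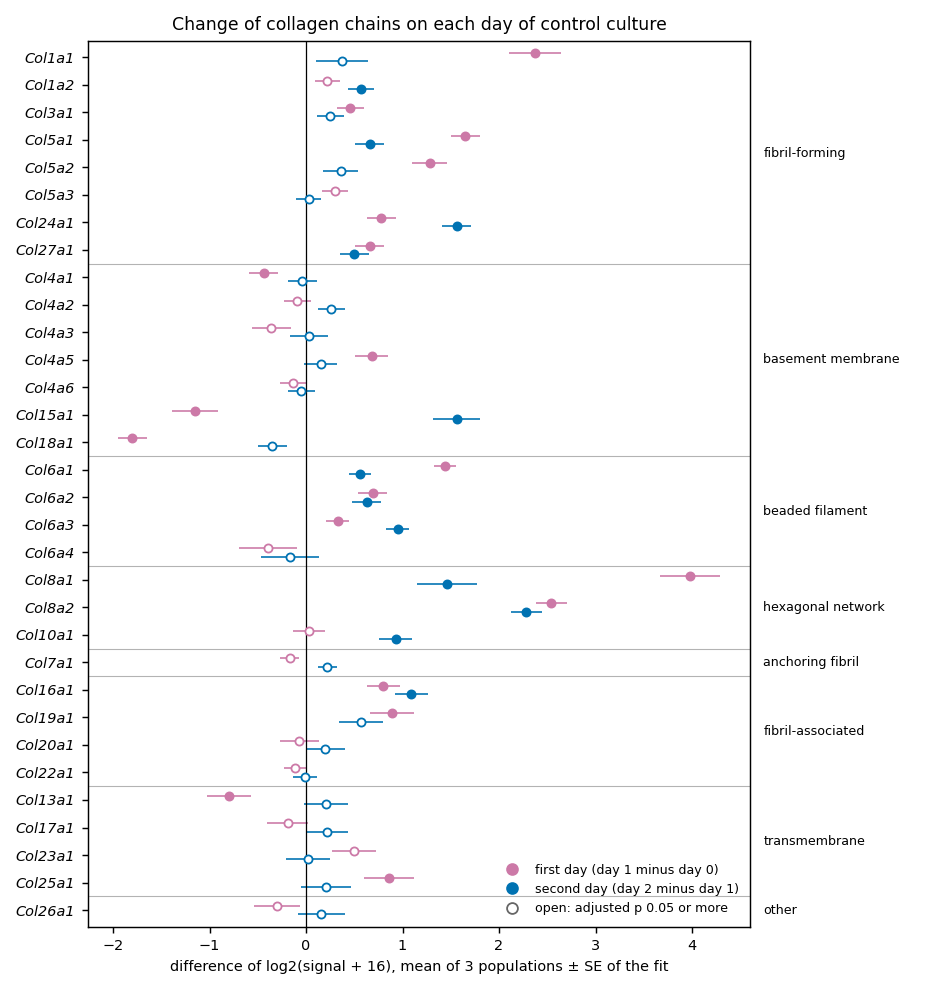
Difference of log2(signal + 16) for each of the 32 tested chains on the first day (day 1 minus day 0, pink) and on the second day (day 2 minus day 1, blue) of control culture, as the mean of 3 populations with the SE of the fit, grouped by the structure that the chain builds. Filled points passed at an adjusted p under 0.05. Col8a1 (3.98) and Col8a2 (2.54) lie farthest to the right on the first day, and Col18a1 (-1.80) farthest to the left.

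Both days were also set against each other directly, in a comparison added after the first results were seen, as the second-day change minus the first-day change. Of 32 chains 4 had the higher value on the second day (5.58% of all genes) and 4 the lower (8.88%). Col15a1 (2.71 ± 0.42), Col18a1 (1.45 ± 0.26), Col10a1 (0.89 ± 0.29) and Col24a1 (0.78 ± 0.26) were the higher ones, and Col8a1 (-2.52 ± 0.53), Col1a1 (-2.00 ± 0.48), Col5a1 (-0.99 ± 0.25) and Col6a1 (-0.88 ± 0.18) the lower ones. Col10a1 entered the tests only through day 2 arrays, and Col8a1 and Col24a1 only through arrays later than day 0. Their values therefore do not support these counts. The day 1 arrays enter both changes with opposite sign. Depending on the processing and on the array left out, 2 to 4 chains were higher and 3 to 5 lower.

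Type VIII collagen is a short-chain collagen of hexagonal networks, known from vessel walls and from the membrane below the corneal endothelium, and is built from Col8a1 and Col8a2. On the day 0 arrays Col8a1 read 4.11 and 4.39 (early), 4.23 and 5.02 (intermediate) and 5.33 and 4.13 (late). At day 1 it read 8.78 and 8.77 (early), 7.94 and 8.66 (intermediate) and 8.31 and 8.66 (late), and at day 2 9.88 and 10.23 (early), 9.67 and 10.45 (intermediate) and 9.44 and 10.20 (late). The arrays of the 3 days did not overlap, and the day 0 values lie near the bottom of the scale. Col8a1 rose by 3.98 ± 0.31 on the first day and by 1.46 ± 0.31 on the second (adjusted p = 2.71e-09 and 0.00449); on the second day it no longer passed when 1 rather than 16 was added to the signal (adjusted p = 0.0602).

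Its partner Col8a2 followed at day 0 with 4.67 and 4.88 (early), 4.80 and 4.85 (intermediate) and 5.12 and 4.94 (late). The day 1 arrays read 7.01 and 6.67 (early), 7.15 and 7.61 (intermediate) and 8.00 and 8.02 (late), and the day 2 arrays 9.47 and 9.12 (early), 9.87 and 9.85 (intermediate) and 10.03 and 9.83 (late). Here too no array of a later day overlapped with one of an earlier day. The rise was 2.54 ± 0.16 on the first day and 2.28 ± 0.16 on the second (adjusted p = 2.41e-10 and 1.72e-08), and the difference between both steps did not pass (-0.25 ± 0.28). From day 0 to day 2 Col8a1 rose by 5.81 ± 0.53, 5.43 ± 0.53 and 5.09 ± 0.53 and Col8a2 by 4.52 ± 0.28, 5.03 ± 0.28 and 4.90 ± 0.28 (each in the order early, intermediate, late).

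Col10a1, another chain of hexagonal networks, is the marker collagen of hypertrophic chondrocytes and builds homotrimers. It read 4.24 and 4.38 (early), 4.28 and 4.24 (intermediate) and 4.21 and 4.20 (late) at day 0 and 4.20 and 4.16 (early), 4.45 and 4.32 (intermediate) and 4.18 and 4.43 (late) at day 1, all near the bottom of the scale. At day 2 the arrays read 4.28 and 5.23 (early), 5.59 and 5.53 (intermediate) and 5.25 and 5.41 (late). The intermediate and late arrays of day 2 lay above every earlier array, and 1 early array stayed within the day 1 range. Col10a1 changed by 0.03 ± 0.17 on the first day, which did not pass, and rose by 0.93 ± 0.17 on the second (adjusted p = 0.00118; 0.00046 without the filter). The 4 arrays on which it lay above the 40th percentile were all of day 2 (3 control and 1 BMP4), so it entered the test only through the day at which it was then higher, and its rise describes these arrays without supporting the counts. Compared with day 0 it rose in the intermediate (1.30 ± 0.29) and the late cultures (1.13 ± 0.29) and did not pass in the early one (0.45 ± 0.29, adjusted p = 0.295).

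**Figure D2:**
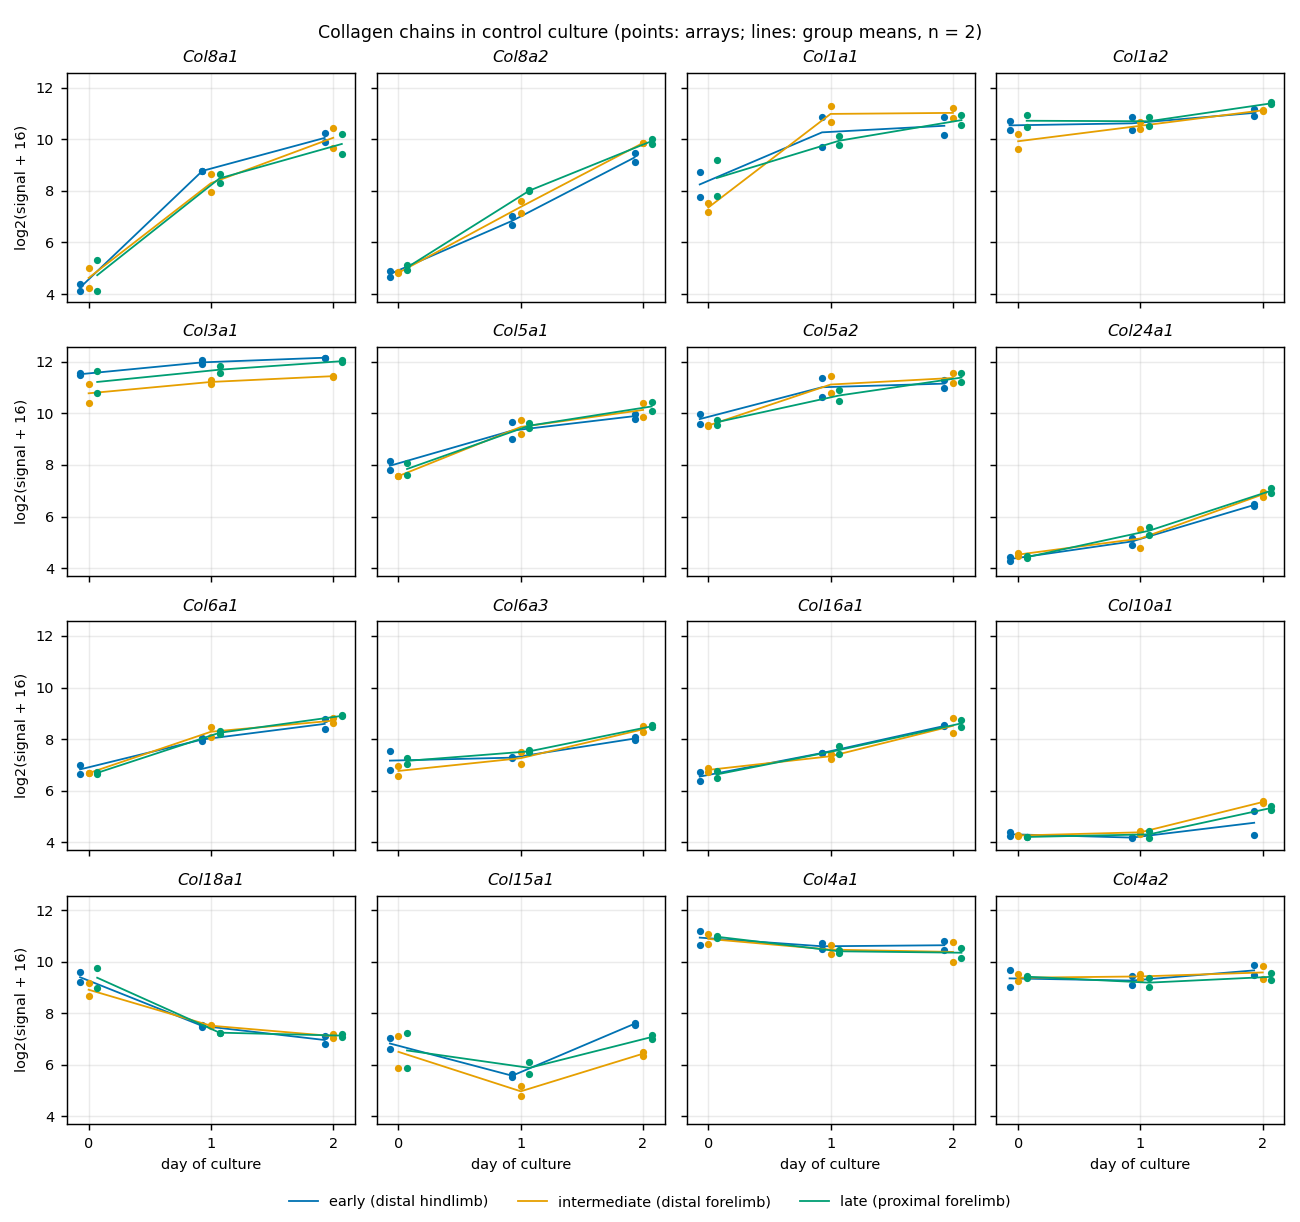
log2(signal + 16) of 16 chains (vertical axis) against the day of control culture (horizontal axis), with each array as a point and lines through the means of the 2 arrays of a group, for the early (blue), intermediate (orange) and late (green) population. Col8a1 and Col8a2 climb from between 4.11 and 5.33 at day 0 to between 9.12 and 10.45 at day 2, Col18a1 falls on the first day, and Col4a2 stays between 9.01 and 9.85.

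Of the 8 fibril-forming chains, 6 rose on the first day (22.5% of all genes) and 4 on the second (5.61%), and none fell on either. Type I collagen, the main collagen of bone, skin and tendon, is made of chains from Col1a1 and Col1a2. Col1a1 read 7.77 and 8.73 (early), 7.54 and 7.17 (intermediate) and 9.21 and 7.79 (late) at day 0. It read 9.69 and 10.85 (early), 10.67 and 11.30 (intermediate) and 9.78 and 10.11 (late) at day 1 and 10.18 and 10.87 (early), 10.83 and 11.22 (intermediate) and 10.54 and 10.95 (late) at day 2. All day 0 arrays lay below all later arrays, while days 1 and 2 overlapped. It rose by 2.37 ± 0.27 on the first day (adjusted p = 6.84e-07) and changed by 0.37 ± 0.27 on the second (adjusted p = 0.484). Without the 3 doubted day 0 arrays its day 2 difference in the late population no longer passed (1.53, adjusted p = 0.0504), nor did it without late replicate 2 of day 0 alone (1.53, adjusted p = 0.0524).

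Col1a2 took another course. It read 10.36 and 10.72 (early), 10.22 and 9.63 (intermediate) and 10.95 and 10.49 (late) at day 0 and 10.87 and 10.37 (early), 10.66 and 10.39 (intermediate) and 10.87 and 10.53 (late) at day 1. At day 2 it read 11.16 and 10.89 (early), 11.14 and 11.11 (intermediate) and 11.36 and 11.43 (late). Days 0 and 1 overlapped, and the day 2 arrays lay above all day 1 arrays. The first-day change of 0.22 ± 0.13 did not pass (adjusted p = 0.181), and Col1a2 rose by 0.57 ± 0.13 on the second day (adjusted p = 0.00636). On the first day the partner chains thus changed by 2.37 and 0.22, and whether these differ was not tested.

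Type III collagen, a homotrimer of Col3a1 found beside type I in skin and vessels, changed little. Col3a1 read 11.49 and 11.55 (early), 10.41 and 11.15 (intermediate) and 11.64 and 10.80 (late) at day 0, 12.06 and 11.90 (early), 11.14 and 11.30 (intermediate) and 11.82 and 11.57 (late) at day 1 and 12.16 and 12.16 (early), 11.47 and 11.42 (intermediate) and 12.07 and 11.98 (late) at day 2. The intermediate arrays were lower than those of the other populations at days 1 and 2, and the days overlapped. It rose by 0.46 ± 0.14 on the first day (adjusted p = 0.0134), and the second-day value of 0.25 ± 0.14 did not pass.

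Type V collagen nucleates type I fibrils and sets their width. Its Col5a1 chain read 7.79 and 8.15 (early), 7.57 and 7.57 (intermediate) and 8.08 and 7.61 (late) at day 0, 8.99 and 9.68 (early), 9.22 and 9.73 (intermediate) and 9.44 and 9.61 (late) at day 1 and 9.80 and 9.99 (early), 9.85 and 10.42 (intermediate) and 10.11 and 10.43 (late) at day 2. These 3 ranges did not overlap, and Col5a1 rose by 1.65 ± 0.15 and 0.66 ± 0.15 on the first and second day (adjusted p = 1.64e-08 and 0.00639). The mean of its 3 probe sets did not pass on the second day (0.46, adjusted p = 0.071). Col5a2 read 9.97 and 9.59 (early), 9.55 and 9.51 (intermediate) and 9.56 and 9.76 (late) at day 0, 10.65 and 11.38 (early), 10.80 and 11.44 (intermediate) and 10.48 and 10.91 (late) at day 1 and 11.00 and 11.31 (early), 11.19 and 11.56 (intermediate) and 11.22 and 11.56 (late) at day 2. Its day 0 arrays lay below all others, and it rose by 1.28 ± 0.18 on the first day (adjusted p = 7.25e-06) with 0.36 ± 0.18 on the second not passing. The other type V chain, Col5a3, changed by 0.30 ± 0.13 and 0.03 ± 0.13 and passed in no comparison.

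The fibril-forming chains XXIV and XXVII rose on both days. Col24a1, known from developing bone, had a median of 4.45 at day 0, 5.23 at day 1 and 6.83 at day 2, with no overlap of the days. It rose by 0.78 ± 0.15 and by 1.56 ± 0.15 (adjusted p = 0.00028 and 1.25e-06) and lay above the 40th percentile on 15 of 30 arrays. Col27a1 had medians of 8.18, 8.83 and 9.36, also without overlap, and rose by 0.66 ± 0.15 and 0.50 ± 0.15. Its second-day call was lost in 9 of the 12 fits that left out 1 array (0.42 to 0.54, adjusted p = 0.0513 to 0.125).

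Type VI collagen forms beaded filaments from Col6a1, Col6a2 and a longer chain, here Col6a3. All 3 rose on both days. Col6a1 read 6.66 and 6.99 (early), 6.67 and 6.69 (intermediate) and 6.65 and 6.73 (late) at day 0, 7.91 and 8.06 (early), 8.09 and 8.48 (intermediate) and 8.18 and 8.31 (late) at day 1 and 8.77 and 8.41 (early), 8.63 and 8.80 (intermediate) and 8.92 and 8.88 (late) at day 2. The day 0 arrays were clear of all others, and the rise was 1.44 ± 0.11 on the first and 0.56 ± 0.11 on the second day (adjusted p = 1.54e-09 and 0.00171).

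Col6a2 read 7.68 and 8.17 (early), 7.97 and 7.50 (intermediate) and 8.10 and 7.90 (late) at day 0, 8.27 and 8.79 (early), 8.45 and 8.97 (intermediate) and 8.55 and 8.42 (late) at day 1 and 9.39 and 8.80 (early), 9.20 and 9.03 (intermediate) and 9.40 and 9.41 (late) at day 2. Day 0 was below the later days, days 1 and 2 overlapped, and the steps were 0.69 ± 0.15 and 0.63 ± 0.15. Col6a3 read 6.81 and 7.52 (early), 6.95 and 6.58 (intermediate) and 7.28 and 7.03 (late) at day 0, 7.29 and 7.27 (early), 7.04 and 7.48 (intermediate) and 7.56 and 7.49 (late) at day 1 and 8.09 and 7.95 (early), 8.27 and 8.49 (intermediate) and 8.53 and 8.46 (late) at day 2. Its day 2 arrays lay above all earlier ones and rose by 0.95 ± 0.12 (adjusted p = 4.23e-05), while the first-day value of 0.33 ± 0.12 passed only just (adjusted p = 0.0435). That first-day call was lost without the doubted arrays (0.34, adjusted p = 0.0568) and in 8 of the 12 fits that left out 1 array (adjusted p = 0.0651 to 0.182). Col6a4, near the bottom of the scale with 4.91 as its median over all arrays, passed in no comparison.

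Of the 7 basement membrane chains tested, 1 rose and 3 fell on the first day, beside 22.5% and 17.0% of all genes. On the second day 1 rose and 0 fell, beside 5.61% and 2.94% of all genes. Whether these counts differ from those of the fibril-forming chains was not tested. Col18a1 gives rise to the heparan sulfate proteoglycan collagen XVIII and, by cleavage, to endostatin. It read 9.58 and 9.21 (early), 9.16 and 8.66 (intermediate) and 9.76 and 8.99 (late) at day 0. It read 7.45 and 7.56 (early), 7.50 and 7.53 (intermediate) and 7.25 and 7.24 (late) at day 1 and 7.10 and 6.82 (early), 7.04 and 7.18 (intermediate) and 7.06 and 7.20 (late) at day 2. Every day 0 array was above every later array and every day 1 array above every day 2 array. Col18a1 fell by 1.80 on the first day (SE 0.15, adjusted p = 6.32e-09) and changed by -0.35 ± 0.15 on the second (adjusted p = 0.155). Between day 0 and day 2 the differences were -2.43 ± 0.26, -1.80 ± 0.26 and -2.24 ± 0.26 in the same order of populations.

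Col15a1, the other multiplexin, fell and then rose. It read 7.02 and 6.63 (early), 7.11 and 5.89 (intermediate) and 7.22 and 5.89 (late) at day 0 and 5.64 and 5.51 (early), 5.17 and 4.77 (intermediate) and 6.10 and 5.66 (late) at day 1. At day 2 it read 7.62 and 7.56 (early), 6.51 and 6.35 (intermediate) and 7.01 and 7.14 (late). Each population had its lowest mean at day 1, with overlap of days 0 and 1 in the pooled arrays and none of days 1 and 2. Col15a1 fell by 1.15 on the first day (SE 0.24, adjusted p = 0.000619) and rose by 1.56 ± 0.24 on the second (adjusted p = 0.000228). Day 2 did not differ from day 0 past the threshold in any population (0.76 ± 0.42, -0.06 ± 0.42 and 0.52 ± 0.42).

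Col4a1 and Col4a2, whose genes neighbour each other head to head, make the ubiquitous type IV network. Col4a1 read 11.20 and 10.66 (early), 11.09 and 10.67 (intermediate) and 10.92 and 11.01 (late) at day 0, 10.48 and 10.71 (early), 10.30 and 10.63 (intermediate) and 10.34 and 10.46 (late) at day 1 and 10.46 and 10.81 (early), 10.00 and 10.75 (intermediate) and 10.15 and 10.54 (late) at day 2. The days overlapped, and Col4a1 fell by 0.44 on the first day (SE 0.15, adjusted p = 0.0204). The mean of its probe sets did not pass (-0.34, adjusted p = 0.0889), nor did the fits without intermediate or early replicate 1 of day 0 or of day 1 (-0.35 to -0.40, adjusted p = 0.0553 to 0.08). Col4a2 read 9.69 and 9.01 (early), 9.51 and 9.24 (intermediate) and 9.45 and 9.38 (late) at day 0, 9.08 and 9.45 (early), 9.32 and 9.53 (intermediate) and 9.01 and 9.36 (late) at day 1 and 9.47 and 9.85 (early), 9.33 and 9.83 (intermediate) and 9.28 and 9.54 (late) at day 2. All 3 days overlapped and neither step passed (-0.09 ± 0.14 and 0.26 ± 0.14). Among the tissue-restricted type IV chains, Col4a5 rose by 0.68 ± 0.17 on the first day (adjusted p = 0.00327), and Col4a3 (-0.36 ± 0.20) and Col4a6 (-0.13 ± 0.14) did not pass.

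Of the 4 fibril-associated chains tested, 2 rose on the first day (22.5% of all genes) and 1 on the second (5.61%). Col16a1, which sits on fibrils and around smooth muscle, had medians of 6.72, 7.44 and 8.51 at days 0, 1 and 2, with no overlap. It rose by 0.80 ± 0.17 and 1.09 ± 0.17 (adjusted p = 0.000635 and 0.000228). Col19a1, a chain known from embryonic muscle, had medians of 4.84, 5.51 and 6.07 and rose by 0.89 ± 0.23 on the first day (adjusted p = 0.00331). Col20a1 and Col22a1 passed in no comparison.

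Among the transmembrane chains, Col25a1, which is made by muscle cells and nerve cells, rose by 0.86 ± 0.26 on the first day (adjusted p = 0.0106), but a second probe set read -0.22 and their mean did not pass (0.32, adjusted p = 0.205). Col13a1, a chain of cell adhesion sites, fell by 0.80 (SE 0.23, adjusted p = 0.00763), and this call was lost without the doubted arrays (-0.58, adjusted p = 0.142). Col17a1 (-0.19 ± 0.21) and Col23a1 (0.50 ± 0.23) did not pass on the first day. Over the 18 comparisons planned, 10 of the 32 chains passed in none: Col4a2, Col4a3, Col4a6, Col5a3, Col6a4, Col7a1 of anchoring fibrils, Col20a1, Col22a1, Col23a1 and Col26a1.

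Genes of the proteins that make and place collagens were counted in the same way, beside 22.5% of all genes that rose and 17.0% that fell on the first day and 5.61% and 2.94% on the second. Of 22 modifying enzymes and chaperones, 19 rose and 0 fell on the first day and 15 rose and 0 fell on the second, with medians of 0.55 and 0.58. Fkbp14, a prolyl isomerase for collagens, rose by 1.26 ± 0.08 and 0.97 ± 0.08, and P3h4 and Crtap, members of a lysyl and a prolyl hydroxylase complex, rose by 1.94 ± 0.12 and 1.49 ± 0.11 on the first day. P4ha1, the catalytic subunit of prolyl 4-hydroxylase, rose by 0.46 ± 0.11 and 1.08 ± 0.11.

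Of 10 genes of propeptide processing and cross-linking, 8 rose on the first day and 3 on the second. The collagen-binding Sparc (2.99 ± 0.19), the lysyl oxidase Loxl1 (2.59 ± 0.21) and the proteinase enhancer Pcolce2 (2.31 ± 0.14) rose on the first day, whereas Lox, the main cross-linking oxidase, rose by 0.89 ± 0.24 on the first and 2.31 ± 0.24 on the second. Of 12 fibril-binding proteins 8 rose on the first and 7 on the second day, among them the proteoglycans Ogn (3.13 ± 0.18 and 2.52 ± 0.18) and Lum (0.41 ± 0.15 and 1.79 ± 0.15). Of 7 collagen receptors 4 rose on the first day, with Ddr1 at 1.99 ± 0.23, and 1 on the second. Of 7 collagenases, gelatinases and tissue inhibitors of these enzymes 5 rose and 1 fell (Mmp2, -0.52 ± 0.14) on the first day, and 3 rose on the second. Of 12 basement membrane partners 4 rose and 1 fell (Lama1, -1.35 ± 0.38) on the first day, with a median of -0.02, and 2 rose on the second. The 6 excluded cartilage chains all rose on the first day (median 2.66) and 3 of them rose on the second.

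Markers of other cell types changed between the same arrays, beside the shares of all genes given above for each day. On the first day 8 of 10 endothelial markers fell and 1 rose, and their summed signal went from between 668 and 1090 to between 489 and 650, with Tie1 at or below the 40th percentile on all day 1 arrays. Of 4 red blood cell markers 3 fell, and their sum dropped from between 2570 and 10700 to between 40.5 and 101. Of 6 smooth muscle markers 5 rose, from between 369 and 621 to between 8840 and 12100, while Myh11 stayed at or below the 40th percentile. Of 11 skeletal muscle markers 10 rose, from between 247 and 631 to between 1650 and 10200. On the second day none of the endothelial, red blood cell, smooth or skeletal muscle markers passed, and 5 of 6 cartilage markers rose. Their part in the changes of Col8a1, Col8a2, Col16a1, Col18a1, Col15a1, Col4a1 and the other chains was not tested.

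Few collagen chains passed for BMP4 in the main fit. With a block for the replicate number more passed in the early population at day 2 and on average, as given in the last section. In the early population, 0 of 32 chains passed at day 1 (2.45% of all genes passed in either direction; 4 chains had an unadjusted p under 0.05), and 2 fell at day 2 (5.68% of all genes; 9 chains under 0.05 unadjusted). In the intermediate population 0 chains passed at day 1 (0.238% of all genes; 3 chains unadjusted) and 0 at day 2 (0.00661%; 3 chains unadjusted). In the late population 0 passed at day 1 (0.0793%; 0 chains unadjusted) and 0 at day 2 (0.0132%; 3 chains unadjusted). Of all 15136 genes, 2274 had an unadjusted p under 0.05 at day 1 and 3088 at day 2 in the early population. These numbers were 1134 and 686 in the intermediate and 1144 and 712 in the late population. The unadjusted counts of chains compare with these numbers, not with the shares in brackets. The median difference of the chains lay between -0.03 and 0.09 over these 6 comparisons. The median SE was 0.29 per chain, which limits what a single comparison can show.

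The falling chains were Col8a2 and Col16a1 in the early population at day 2. Col8a2 read 9.47 and 9.12 on the control arrays and 8.67 and 7.58 on the BMP4 arrays, without overlap, a difference of -1.16 ± 0.28 (adjusted p = 0.0188). Col16a1 read 8.49 and 8.53 on the control arrays and 7.89 and 7.10 on the BMP4 arrays, also without overlap, a difference of -1.02 ± 0.29 (adjusted p = 0.043). In both chains replicate 2 of BMP4 was the lower array, and without it the differences were -0.62 (adjusted p = 0.376) for Col8a2 and -0.62 (adjusted p = 0.448) for Col16a1. Both calls were also lost without control replicate 1 (-0.99, adjusted p = 0.196, and -1.04, adjusted p = 0.191) and in a fit of only the arrays compared (adjusted p = 0.143 and 0.111). Col16a1 further lost its call without control replicate 2 (adjusted p = 0.15), without the filter, with 1 added to the signal and without the doubted arrays (adjusted p = 0.0504 to 0.0587). In the same comparison 496 of all 15136 genes fell and 364 rose. Of 6 excluded cartilage chains 3 fell (Col9a3, Col11a1 and Col11a2, -2.08 ± 0.48, -1.59 ± 0.36 and -1.44 ± 0.34) and 4 of 6 cartilage markers fell, while 5 of 7 macrophage markers rose. Without the same BMP4 replicate 2 these 3 chains no longer passed (-1.17, -0.93 and -0.73, adjusted p = 0.321, 0.282 and 0.358), 1 cartilage marker fell and 2 macrophage markers rose. Nor did the 3 chains pass without control replicate 1 (adjusted p = 0.0846 to 0.129), when 2 cartilage markers fell and 2 macrophage markers rose, or without control replicate 2 (adjusted p = 0.0748 to 0.0802), when 2 cartilage markers fell. Whether these bear on Col8a2 and Col16a1 was not tested.

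Averaged over 3 populations and 2 days, 3 chains rose and 2 fell with BMP4, beside 6.10% and 5.55% of all genes, so the counts lay near the background, and 1 of the 3, Col17a1, entered the test only through BMP4 arrays. A further 8 chains, 13 of 32 in all, had an unadjusted p under 0.05, beside 3835 of all 15136 genes. Col1a1 (0.71 ± 0.19, adjusted p = 0.02), Col19a1 (0.77 ± 0.16, adjusted p = 0.00295) and Col17a1 (0.61 ± 0.15, adjusted p = 0.00863) rose, and Col24a1 (-0.48 ± 0.11, adjusted p = 0.00518) and Col8a2 (-0.49 ± 0.12, adjusted p = 0.00836) fell. The median difference was 0.03 for the 32 chains and 0.01 for all genes.

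**Figure D3:**
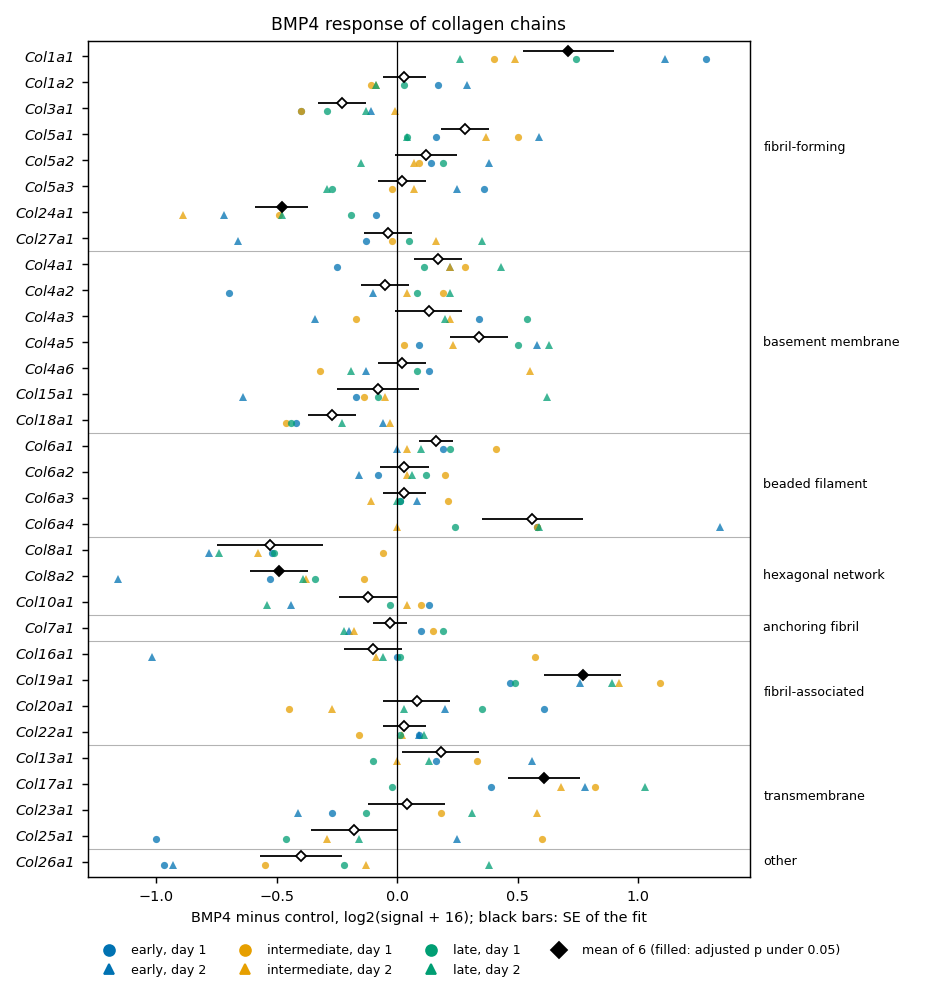
BMP4 minus control on the scale log2(signal + 16) for the 32 tested chains, with coloured points for the 6 pairs of groups (circles day 1, triangles day 2; blue early, orange intermediate, green late) and diamonds for their mean with the SE of the fit. Filled diamonds passed at an adjusted p under 0.05: Col1a1, Col19a1 and Col17a1 lie to the right of 0 and Col24a1 and Col8a2 to the left.

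Col1a1 was higher with BMP4 in all 6 pairs of groups. At day 1 the controls read 9.69 and 10.85 (early), 10.67 and 11.30 (intermediate) and 9.78 and 10.11 (late), and the BMP4 arrays 11.44 and 11.66 (early), 10.78 and 12.01 (intermediate) and 10.11 and 11.25 (late). At day 2 the controls read 10.18 and 10.87 (early), 10.83 and 11.22 (intermediate) and 10.54 and 10.95 (late) and the BMP4 arrays 11.46 and 11.82 (early), 11.27 and 11.77 (intermediate) and 10.87 and 11.14 (late). The groups were clear of each other in the early population on both days and in the intermediate population at day 2 and overlapped elsewhere. Between arrays of the same replicate number, Col1a1 was higher with BMP4 in each case. The early population had the largest differences, 1.28 ± 0.48 at day 1 and 1.11 ± 0.48 at day 2, neither of which passed alone (adjusted p = 0.188 and 0.184). The averaged call was lost without early control replicate 1 or without late BMP4 replicate 2 of day 1 (0.62 each, adjusted p = 0.0503 and 0.0501).

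The partner chain Col1a2 did not pass (0.03 ± 0.09, adjusted p = 0.864). Under BMP4 it read 11.05 and 10.53 (early), 10.23 and 10.58 (intermediate) and 10.76 and 10.70 (late) at day 1 and 11.50 and 11.14 (early), 11.02 and 11.06 (intermediate) and 11.30 and 11.31 (late) at day 2. These arrays overlapped with the control arrays named above, except at day 2 in the intermediate and the late population, where they lay below them. Col3a1, at -0.23 ± 0.10 (adjusted p = 0.155), read 11.66 and 11.50 (early), 10.38 and 11.26 (intermediate) and 11.39 and 11.42 (late) at day 1 and 12.16 and 11.94 (early), 11.36 and 11.50 (intermediate) and 11.94 and 11.84 (late) at day 2 with BMP4.

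Col19a1 was higher with BMP4 in all 6 pairs. At day 1 the controls read 5.45 and 5.36 (early), 4.96 and 5.57 (intermediate) and 6.36 and 6.91 (late), and the BMP4 arrays 5.69 and 6.06 (early), 5.67 and 7.03 (intermediate) and 6.92 and 7.32 (late). At day 2 the controls read 6.13 and 5.98 (early), 5.04 and 6.01 (intermediate) and 7.09 and 7.77 (late), and the BMP4 arrays 7.17 and 6.46 (early), 6.02 and 6.89 (intermediate) and 8.29 and 8.35 (late). The 2 groups overlapped in no pair. No pair passed alone, with differences of 0.47 to 1.09 and an SE of 0.39. Col19a1 lay above the 40th percentile on 21 of 30 arrays.

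Col17a1, the hemidesmosome collagen of epithelia, was dim and lay above the 40th percentile on 3 of 30 arrays, all of them BMP4 arrays of day 2. It therefore entered the test only through the group in which it was then higher, and its value is a description that supports no count (adjusted p = 0.00694 without the filter). The controls read 4.63 and 4.16 (early), 4.30 and 4.03 (intermediate) and 4.47 and 4.10 (late) at day 1 and 4.86 and 4.33 (early), 4.88 and 4.35 (intermediate) and 4.31 and 4.29 (late) at day 2. The BMP4 arrays read 5.12 and 4.44 (early), 5.11 and 4.86 (intermediate) and 4.36 and 4.18 (late) and 5.89 and 4.87 (early), 5.69 and 4.90 (intermediate) and 5.50 and 5.15 (late). At day 1 the late group means were 4.28 in control and 4.27 with BMP4, and BMP4 was higher in the other 5 pairs. Of 7 ectoderm markers, 0 rose and 1 (Krt18, -0.44 ± 0.11) fell in this averaged comparison, beside 6.10% and 5.55% of all genes. The part of these markers in the value of Col17a1 was not tested.

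Col24a1 was lower with BMP4 in all 6 pairs. At day 1 the controls read 5.17 and 4.90 (early), 5.53 and 4.77 (intermediate) and 5.60 and 5.30 (late) and the BMP4 arrays 5.27 and 4.61 (early), 4.89 and 4.43 (intermediate) and 5.41 and 5.09 (late). At day 2 the controls read 6.48 and 6.42 (early), 6.96 and 6.76 (intermediate) and 7.11 and 6.90 (late) and the BMP4 arrays 5.98 and 5.48 (early), 6.05 and 5.89 (intermediate) and 6.46 and 6.59 (late). Control and BMP4 arrays overlapped at day 1 and were clear of each other in all 3 populations at day 2, when the differences were -0.72 (early), -0.89 (intermediate) and -0.48 (late), with an SE of 0.26 each.

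Col8a2 was lower in all 6 pairs as well. Its controls are given above, and the BMP4 arrays read 6.52 and 6.09 (early), 7.42 and 7.07 (intermediate) and 8.00 and 7.35 (late) at day 1 and 8.67 and 7.58 (early), 9.66 and 9.29 (intermediate) and 9.81 and 9.27 (late) at day 2. The groups were clear of each other in the early population on both days and at day 2 in the others. Col8a1 was also lower in all 6 pairs, with BMP4 arrays at 7.55 and 8.97 (early), 7.74 and 8.73 (intermediate) and 7.56 and 8.37 (late) at day 1 and 8.59 and 9.97 (early), 8.85 and 10.11 (intermediate) and 9.02 and 9.14 (late) at day 2. The BMP4 replicates lay far apart in the early and the intermediate population, and the average of -0.53 ± 0.22 did not pass (adjusted p = 0.123). Col18a1 lay lower in all 6 pairs too, with 7.07 and 7.11 (early), 7.08 and 7.03 (intermediate) and 6.84 and 6.77 (late) at day 1 and 7.39 and 6.42 (early), 7.30 and 6.87 (intermediate) and 6.93 and 6.88 (late) at day 2, an average of -0.27 ± 0.10 that did not pass (adjusted p = 0.102), and Col3a1 was likewise lower in all 6. Higher in all 6 pairs without passing on average were Col4a5 (0.34 ± 0.12, adjusted p = 0.0755), Col6a4 (0.56 ± 0.21, adjusted p = 0.0998), Col5a1 (0.28 ± 0.10) and Col6a1 (0.16 ± 0.07). A direction here is the sign of a difference of group means, however small. With BMP4 and in control, Col6a1 had means of 8.59 and 8.59 (early, day 2) and Col3a1 of 11.43 and 11.44 (intermediate, day 2). How many of all genes kept the same direction in all 6 pairs was not counted. Col4a5 and Col6a4 passed without the 3 doubted day 0 arrays and in a fit of only the arrays compared, and Col4a5 also with the mean of its probe sets.

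**Figure D4:**
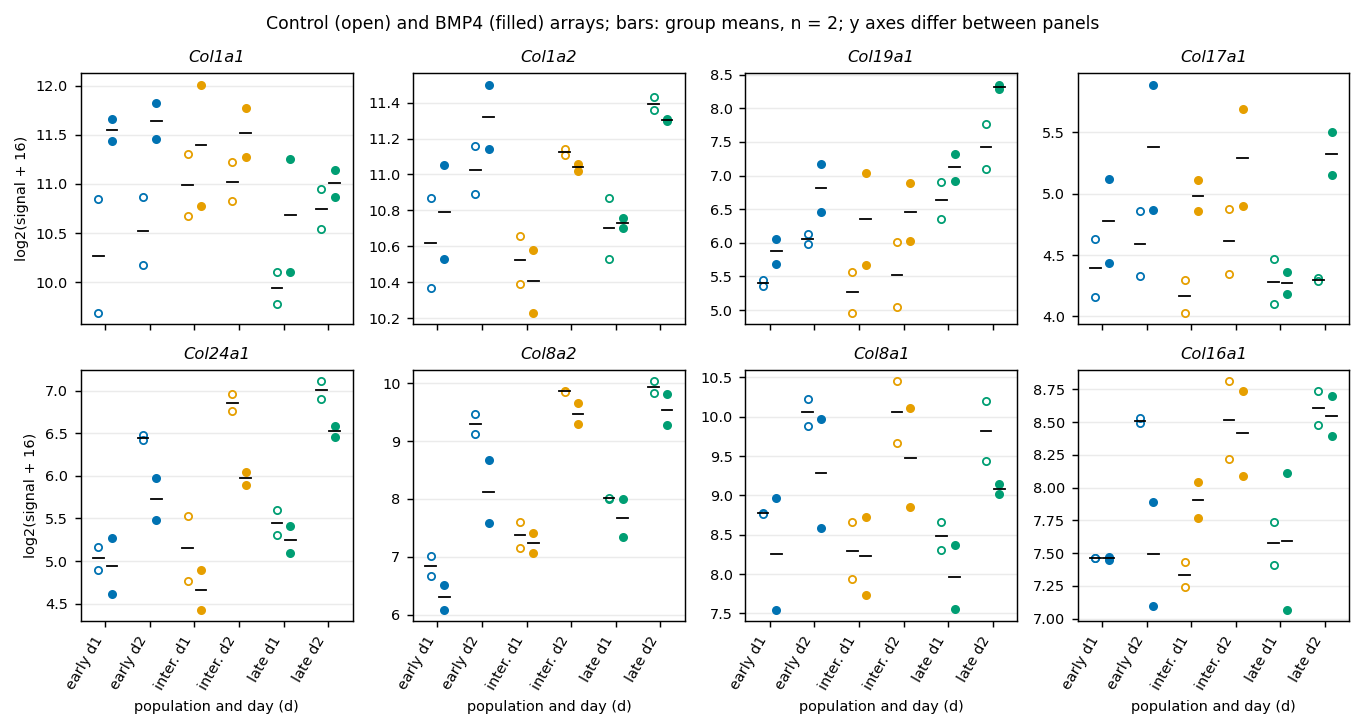
log2(signal + 16) of 8 chains on each control (open) and BMP4 (filled) array of the early (blue), intermediate (orange) and late (green) population at days 1 and 2, with bars at group means of 2 arrays; the vertical axes differ. Col19a1 and Col1a1 are higher with BMP4 in every pair of groups and Col24a1, Col8a1 and Col8a2 lower, while Col1a2 shows no common direction.

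The remaining chains with a value on every array did not pass for BMP4. Col5a1 read 9.34 and 9.66 (early), 9.63 and 10.30 (intermediate) and 9.43 and 9.71 (late) at day 1 and 10.43 and 10.54 (early), 10.35 and 10.67 (intermediate) and 10.30 and 10.33 (late) at day 2 with BMP4, an average difference of 0.28 ± 0.10 (adjusted p = 0.08). Col5a2 read 10.90 and 11.40 (early), 10.72 and 11.69 (intermediate) and 10.60 and 11.17 (late) and 11.39 and 11.67 (early), 11.08 and 11.80 (intermediate) and 11.17 and 11.30 (late), a difference of 0.12 ± 0.13. Control and BMP4 arrays of both type V chains overlapped in every pair but the early one at day 2, and neither chain passed.

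For type VI, Col6a1 read 8.33 and 8.03 (early), 8.44 and 8.96 (intermediate) and 8.31 and 8.62 (late) at day 1 and 8.74 and 8.44 (early), 8.79 and 8.72 (intermediate) and 8.99 and 9.02 (late) at day 2 with BMP4 (0.16 ± 0.07). Col6a2 read 8.35 and 8.54 (early), 8.58 and 9.24 (intermediate) and 8.67 and 8.55 (late) and 9.23 and 8.63 (early), 9.05 and 9.25 (intermediate) and 9.60 and 9.34 (late) (0.03 ± 0.10). Col6a3 read 7.49 and 7.08 (early), 7.41 and 7.52 (intermediate) and 7.70 and 7.36 (late) and 8.34 and 7.86 (early), 8.30 and 8.24 (intermediate) and 8.43 and 8.57 (late) (0.03 ± 0.09). None of the 3 chains, which all rose in culture, passed for BMP4.

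For basement membranes, Col4a1 read 10.25 and 10.44 (early), 10.47 and 11.03 (intermediate) and 10.33 and 10.70 (late) at day 1 and 10.75 and 10.95 (early), 10.37 and 10.82 (intermediate) and 10.55 and 11.00 (late) at day 2 with BMP4 (0.17 ± 0.10). Col4a2 read 8.64 and 8.48 (early), 9.32 and 9.90 (intermediate) and 9.11 and 9.41 (late) and 9.42 and 9.70 (early), 9.41 and 9.82 (intermediate) and 9.46 and 9.80 (late) (-0.05 ± 0.10). Col15a1 read 6.04 and 4.76 (early), 4.76 and 4.90 (intermediate) and 6.04 and 5.56 (late) and 7.35 and 6.53 (early), 6.51 and 6.25 (intermediate) and 7.63 and 7.77 (late) (-0.08 ± 0.17). The low day 1 and higher day 2 level of Col15a1 was thus seen with BMP4 as it was in control medium. Col10a1 read 4.32 and 4.30 (early), 4.56 and 4.41 (intermediate) and 4.30 and 4.25 (late) at day 1 and 4.29 and 4.35 (early), 6.02 and 5.20 (intermediate) and 5.13 and 4.45 (late) at day 2 (-0.12 ± 0.12), with the highest array of all in the intermediate population at day 2 (6.02).

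The lists were also counted in the averaged BMP4 comparison, in which 6.10% of all genes rose and 5.55% fell. Of the collagen machinery, 4 of 22 modifying enzymes and chaperones rose with BMP4 on average and 0 fell, with P3h1 at 0.46 ± 0.11. Of 10 processing and cross-linking genes 3 rose and 1 fell, with Lox at 0.86 ± 0.17 and Sparc at 0.56 ± 0.13 above control and Pcolce2 at -0.33 ± 0.10 below. Of 12 basement membrane partners 3 rose, among them Lama1 (1.54 ± 0.27), and 1 fell (Lama4, -0.46 ± 0.11). The excluded fibril-associated chain Col14a1 rose by 1.93 ± 0.15, beside 0.77 ± 0.16 for Col19a1. Of 7 macrophage markers 6 rose, with summed signals of 341 to 564 in control and 338 to 1020 with BMP4 at day 1, and 301 to 458 and 284 to 1050 at day 2. Their part in the values of Col1a1, Col19a1 and the other chains was not tested.

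No chain differed between populations in its BMP4 response past the threshold. For early minus late, 0 of 32 chains passed (0.780% of all genes; 4 chains had an unadjusted p under 0.05; the lowest adjusted p was 0.306). For early minus intermediate 0 passed (0.429%; 3 chains; 0.387), and for intermediate minus late 0 passed (0% of all genes; 0 chains; 1). The Col1a1 response was 0.70 ± 0.48 larger in the early than in the late population, and that of Col8a2 differed by -0.48 ± 0.28 and of Col16a1 by -0.48 ± 0.29. None of these 3 differences passed. Of all 15136 genes, 1817 (early minus late), 1407 (early minus intermediate) and 598 (intermediate minus late) had an unadjusted p under 0.05 for the response.

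Few of the 32 chains passed between populations in control medium, averaged over days 1 and 2. Where any did, their share (1 or 2 of 32) lay above the share of all genes given beside it. Early minus late, 0 chains were higher (0.244% of all genes) and 2 lower (1.24%). Early minus intermediate, 1 was higher (0.311%) and 0 lower (0.542%). Intermediate minus late, 0 were higher (0.786%) and 2 lower (1.85%). The chains that passed were Col19a1, Col25a1, Col8a2 and Col3a1. An unadjusted p under 0.05 was held by 8 (early minus late), 7 (early minus intermediate) and 8 (intermediate minus late) of the 32 chains. Of all 15136 genes, 1332, 1223 and 1985 held one, in the same order.

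Col19a1 was highest in the late population: across days 1 and 2 it lay between 6.36 and 7.77 there, between 5.36 and 6.13 in the early and between 4.96 and 6.01 in the intermediate population. The late arrays overlapped with neither of the others. The difference was -1.30 ± 0.28 for early minus late (adjusted p = 0.0133) and -1.64 ± 0.28 for intermediate minus late (adjusted p = 0.00126). The first was lost in 4 of 8 fits that left out 1 array (-1.13 to -1.28, adjusted p = 0.0656 to 0.0991), and the second passed in all 8. Early and intermediate did not differ past the threshold (0.33 ± 0.28).

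Col25a1 lay between 9.02 and 9.67 in the late, 7.98 and 8.79 in the early and 7.13 and 8.62 in the intermediate population. The late arrays were above the intermediate ones, and the difference was -1.62 ± 0.32 (adjusted p = 0.00452). Its other probe set read 0.13 (unadjusted p 0.568) in this comparison, and the mean of both did not pass (-0.74, adjusted p = 0.113). Skeletal muscle markers moved with these chains: 10 of 11 were lower in early than in late (1.24% of all genes) and 11 of 11 lower in intermediate than in late (1.85%). Their summed signals were 2460 to 5070 in the early, 1650 to 3410 in the intermediate and 9600 to 12300 in the late population. Their part in the values of Col19a1 and Col25a1 was not tested.

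Col8a2 was lower in the early than in the late population (-0.90 ± 0.20, adjusted p = 0.02). At day 1 its arrays read 7.01 and 6.67 in the early and 8.00 and 8.02 in the late population, and at day 2 9.47 and 9.12 against 10.03 and 9.83. Early arrays lay below late arrays on both days, and the intermediate arrays did not differ from either past the threshold. The call was lost in 6 of 8 fits that left out 1 array (-0.82 to -0.95, adjusted p = 0.0506 to 0.14). Col3a1 was higher in the early than in the intermediate population, between 11.90 and 12.16 against between 11.14 and 11.47, with no overlap (0.74 ± 0.17, adjusted p = 0.0423). This call was lost in each of the 8 fits that left out 1 array (0.70 to 0.78, adjusted p = 0.0725 to 0.198), with each array centred on its median (0.72, adjusted p = 0.0599) and without the filter (adjusted p = 0.0662).

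**Figure D5:**
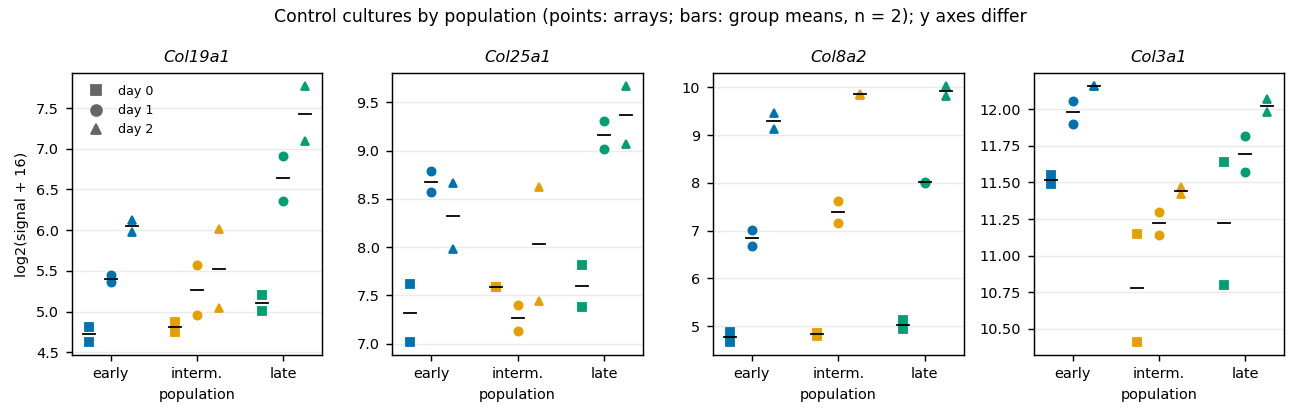
log2(signal + 16) of Col19a1, Col25a1, Col8a2 and Col3a1 on the control arrays of each population (horizontal axis) at day 0 (squares), day 1 (circles) and day 2 (triangles), with bars at group means of 2 arrays; the vertical axes differ. The late arrays of Col19a1 at days 1 and 2 lie above those of the other populations, and the intermediate arrays of Col3a1 lie lowest at days 1 and 2.

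Several chains are read by more than 1 probe set, and these mostly moved alike. For 16 chains, 20 further probe sets passed the filter, and 64 of the 68 calls that could be checked on them had the same sign. The 4 of opposite sign, none with an unadjusted p under 0.05, were for Col19a1 in the early population at day 2 compared with day 0 and for Col25a1 in the late population at day 2, on the first day and between the intermediate and the late population.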

How the data were processed

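Per the submitters' processing notes, the deposited values are MAS5 signal intensity on a linear scale; no settings are named in the labels. The deposited intensity of each Affymetrix mouse array has a trimmed mean of 150, which sets a common scale and could hide a shift of total RNA. The values were taken as log2(signal + 16) with no further scaling. Of 45101 probe sets, 33198 lay above the 40th percentile of their array (20.3 to 30.5 in signal) on 2 or more arrays and were kept, and the brightest named one stood for each of 15136 genes. Symbols came from the platform annotation. Detection calls were not used.

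limma 3.58.1 in R 4.3.3 fitted 15 group means to 30 arrays, with moderated errors, a mean-variance trend and no block (15 residual and 5.51 prior degrees of freedom), two-sided. The 18 planned comparisons and 1 added later were adjusted separately over all genes. The code was tested on simulated data. The chains, gene lists and tests were chosen with earlier results of these data known. Array values are given for the main chains of types I, III, IV, V, VI, VIII, X, XV and XVIII and for chains that passed for BMP4; of the other lists up to 4 genes with the smallest adjusted p are named, and Mmp2, Lama1, Lama4, Krt18, Pcolce2 and Col14a1 were named after their values were seen, as were the arrays of Col8a2 and the medians of Col24a1, Col27a1, Col16a1 and Col19a1. Alternatives were another pseudocount, median centring, no filter, the mean of probe sets, a replicate block, only the arrays compared, leaving out the doubted arrays, and each array in turn.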

Additional observations from a re-analysis of the deposited data

How the results depend on the processing

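Of the 89 calls of single chains, 0 reversed their sign in any alternative run. Leaving out 1 array at a time gave 724 values, of which 654 kept their side of the threshold and 70 did not; the other alternatives gave 623, of which 598 did and 25 did not. For early day 2 BMP4 against control, where 2 chains passed, 4 passed with median centring, 1 with a pseudocount of 1, 1 without the filter, 5 with the replicate block, 1 without the 3 doubted day 0 arrays and 0 in a fit of only the arrays compared. For the averaged BMP4 comparison 8 rather than 5 passed with the replicate block, adding Col26a1, Col5a1 and Col8a1, and 7 passed without the 3 doubted arrays and with only the arrays compared, adding Col4a5 and Col6a4 each time. For early minus intermediate in control medium, where 1 passed, 0 did with median centring, 0 without the filter and 2 with only the arrays compared; for intermediate minus late 4 rather than 2 did with only the arrays compared. The cause was not tested.

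With 1 array left out at a time, 0 to 3 chains passed for early day 2 BMP4, 4 to 7 for averaged BMP4, 11 to 12, 14 to 16 and 14 to 18 for day 2 against day 0 (early, intermediate, late), 17 to 20 on the first and 11 to 12 on the second day, 0 to 2 for early minus late, 0 for early minus intermediate, 2 for intermediate minus late, and 0 for the others. A lone array left in a group is assumed to vary like the other groups. Arrays with the same replicate number in 2 groups deviated from their group means with r between -0.12 and 0.35 (median 0.12; over 0.1 in 60 of 105 pairs of groups), and with r between 0.07 and 0.30 for BMP4 and its control (over 0.1 in 5 of 6). As not every pair exceeded 0.1, the numbers were not taken to pair the samples, and the main fit has no block. This does not exclude an effect shared by arrays of the same number, which would add to the SE of that fit. Col1a1 and Col5a2 read higher on replicate 2 than on replicate 1 in every group of days 1 and 2. The calls with a replicate block are given above. Median centring moved the median of all genes by over 0.1 for BMP4 at day 2 in the early (0.02 to -0.15) and intermediate (0.02 to -0.12) and at day 1 in the early population (0.05 to -0.07), and for the early minus late response (0.02 to -0.16). Signal near the bottom of the scale limits Col10a1, Col13a1, Col17a1, Col20a1 and Col6a4.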
